A study of Mus musculus with 2 samples.

Results

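The 5 genes described here form a pair of chemokine axes: Cxcl9 and Cxcl10 with their receptor Cxcr3, and Cxcl16 with its receptor Cxcr6. They were chosen by name, and all 5 of 5 were found among the 17775 genes of the deposited count matrix. The data are single-cell 5′ RNA libraries from tumours grown from MC38, a mouse colon carcinoma line of C57BL/6 origin, after 200000 cells were implanted in the backs of C57BL/6 mice. From day 7 the mice received either DFMO (difluoromethylornithine, a drug that blocks ornithine decarboxylase and with it polyamine synthesis) or water by gavage for 14 days. The labels disagree on how often per day this was done, and they give neither age nor sex of the mice. Tumours were digested, immune cells were enriched over Ficoll, and cells of 4 mice were pooled into 1 library per group. With 1 library per group there was no replicate, so no test between DFMO and water was made, and every interval printed covers counting error only. A difference between the libraries cannot be told apart from a difference between the pools or the preparations.

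CXCL9 and CXCL10 are secreted chemokines that cells make in response to interferon gamma, the main cytokine of activated T and NK cells. They attract T and NK cells that carry CXCR3, and myeloid cells are a known source in tumours. CXCL16 is made as a membrane protein of macrophages and dendritic cells, is released by the proteases ADAM10 and ADAM17, and binds CXCR6, a receptor of activated and tissue-resident T cells.

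On GRCm38 with GENCODE M21, Cxcl9 (ENSMUSG00000029417) lies on chromosome 5 at 92321347 to 92328079 and Cxcl10 (ENSMUSG00000034855) at 92346638 to 92348889 on the same minus strand, 18558 bases apart. Cxcl16 (ENSMUSG00000018920) lies on chromosome 11 at 70453983 to 70459984 on the minus strand. Cxcr3 (ENSMUSG00000050232) lies on chromosome X at 101731535 to 101734269 on the minus strand, and Cxcr6 (ENSMUSG00000048521) on chromosome 9 at 123806475 to 123811760 on the plus strand. Cxcl10, Cxcl16 and Cxcr6 each overlap 1 gene on the opposite strand, Art3, Zmynd15 and Fyco1 in that order, and no source used here says whether reads were counted by strand. In the DFMO and water libraries Art3 was at 1.03 and 1.70 CPM, Zmynd15 at 16.8 and 22.3 and Fyco1 at 12.8 and 10.2. CPM is the counts-per-million scale, a gene's UMIs (unique molecular identifiers, each a counted RNA molecule) over all UMIs of the cells summed.

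The upstream sequences of the ligand pair are shown because both genes are known interferon targets. They are also shown because Cxcl10 was detected more often in cells with a Cxcl9 UMI, in 3 classes of water cells given further on. RefSeq promoter windows on GRCm38.p6 matched 4 of the 5 members. The stretches printed are the 250 bases before the start of Cxcl9 (chr5:92328080-92328329) and of Cxcl10 (chr5:92348890-92349139), both read 5′ to 3′ on the minus strand. Capitals mark matches on either strand to GAAANNGAA, the core of the interferon-stimulated response element, and to GGGNNNTTC, a kappa B-like motif.

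Cxcl9: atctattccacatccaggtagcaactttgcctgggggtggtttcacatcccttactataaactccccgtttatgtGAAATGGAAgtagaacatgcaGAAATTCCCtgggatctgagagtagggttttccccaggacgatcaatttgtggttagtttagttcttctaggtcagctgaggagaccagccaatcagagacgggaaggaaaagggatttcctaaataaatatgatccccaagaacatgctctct

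Cxcl10: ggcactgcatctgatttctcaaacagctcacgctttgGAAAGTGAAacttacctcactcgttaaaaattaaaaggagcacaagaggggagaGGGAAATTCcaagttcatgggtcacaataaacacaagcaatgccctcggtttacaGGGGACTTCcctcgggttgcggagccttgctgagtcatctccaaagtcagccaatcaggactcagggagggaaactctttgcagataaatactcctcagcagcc

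Each window held 1 match to GAAANNGAA, which 7.13% of all 32851 RefSeq windows of this length held. Cxcl9 had 1 match to GGGNNNTTC and Cxcl10 had 2, against 11.8% of all windows with at least 1. TTCNNNGAA, the gamma-activated site motif, is found in 7.02% of all windows and had no match in these letters. The windows of Cxcr3 and Cxcr6 held no GAAANNGAA, and that of Cxcr3 held 1 match to GGGNNNTTC. A match describes letters and is not a measured binding site.

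The libraries differed in depth and in cell makeup, and both bear on every value over all cells. The DFMO library kept 4421 cells with a median of 2208 UMIs, and the water library 6150 cells with a median of 6334.5. The cells fell into 22 clusters that were named from marker genes, and 37 cell barcodes occurred in both libraries. B cell-like cells were 33.7% of the DFMO and 0.927% of the water cells, CD4 T cell-like cells 14.7% and 0.813%, and monocyte and macrophage-like cells 4.25% and 19.9%. The labels call the material immune cells, yet 13.5% and 34.6% of cells were in clusters with under 20 CPM of Ptprc, the gene of the pan-leukocyte antigen CD45. These are called Ptprc-low. In them Epcam, Krt8, Krt18, Krt19, Cdh1 and Cldn4, the markers of epithelium, summed to 0.389 and 22.3 CPM, with 4 of the 6 at 0 in DFMO. The 7 fibroblast markers summed to 3443 and 3213 CPM, against 14015 and 15200 in fibroblast-like cells. Of these markers, Col1a1 was at only 19.2 and 28.0 CPM in Ptprc-low cells. Ratios between libraries are given for classes of which both libraries kept 100 or more cells, and for the clusters within them.

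Over all kept cells the ligands were lower and the receptors higher in the DFMO library. Cxcl9 stood at 109 CPM (95% Poisson interval 105 to 114) in DFMO and 115 (112 to 118) in water. Cxcl10 was at 588 (578 to 598) and 768 (761 to 775), and Cxcl16 at 29.3 (27.1 to 31.6) and 53.4 (51.6 to 55.3). Of the receptors, Cxcr3 was at 29.0 (26.9 to 31.3) and 15.2 (14.2 to 16.2), and Cxcr6 at 96.1 (92.2 to 100.2) and 56.5 (54.6 to 58.5). The log2 ratios of DFMO over water were -0.07 for Cxcl9, -0.39 for Cxcl10, -0.87 for Cxcl16, 0.93 for Cxcr3 and 0.77 for Cxcr6.

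No member passed a 2-fold difference over all cells, against 13.9% of the 14122 genes with at least 30 UMIs. These ratios depend on how cells are weighted. When the DFMO levels of each class were weighted by the share of UMIs that the class had in water, the log2 ratios became 0.71 for Cxcl9, 0.15 for Cxcl10, -0.35 for Cxcl16, -0.13 for Cxcr3 and -0.46 for Cxcr6, so that 4 of the 5 changed sign. With each cell weighted alike and the mix of classes left as it was, they were -1.57, -1.52, -2.11, -0.17 and -0.37 in the same order, and both receptors changed sign. Levels within classes are therefore described next.

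**Figure D1:**
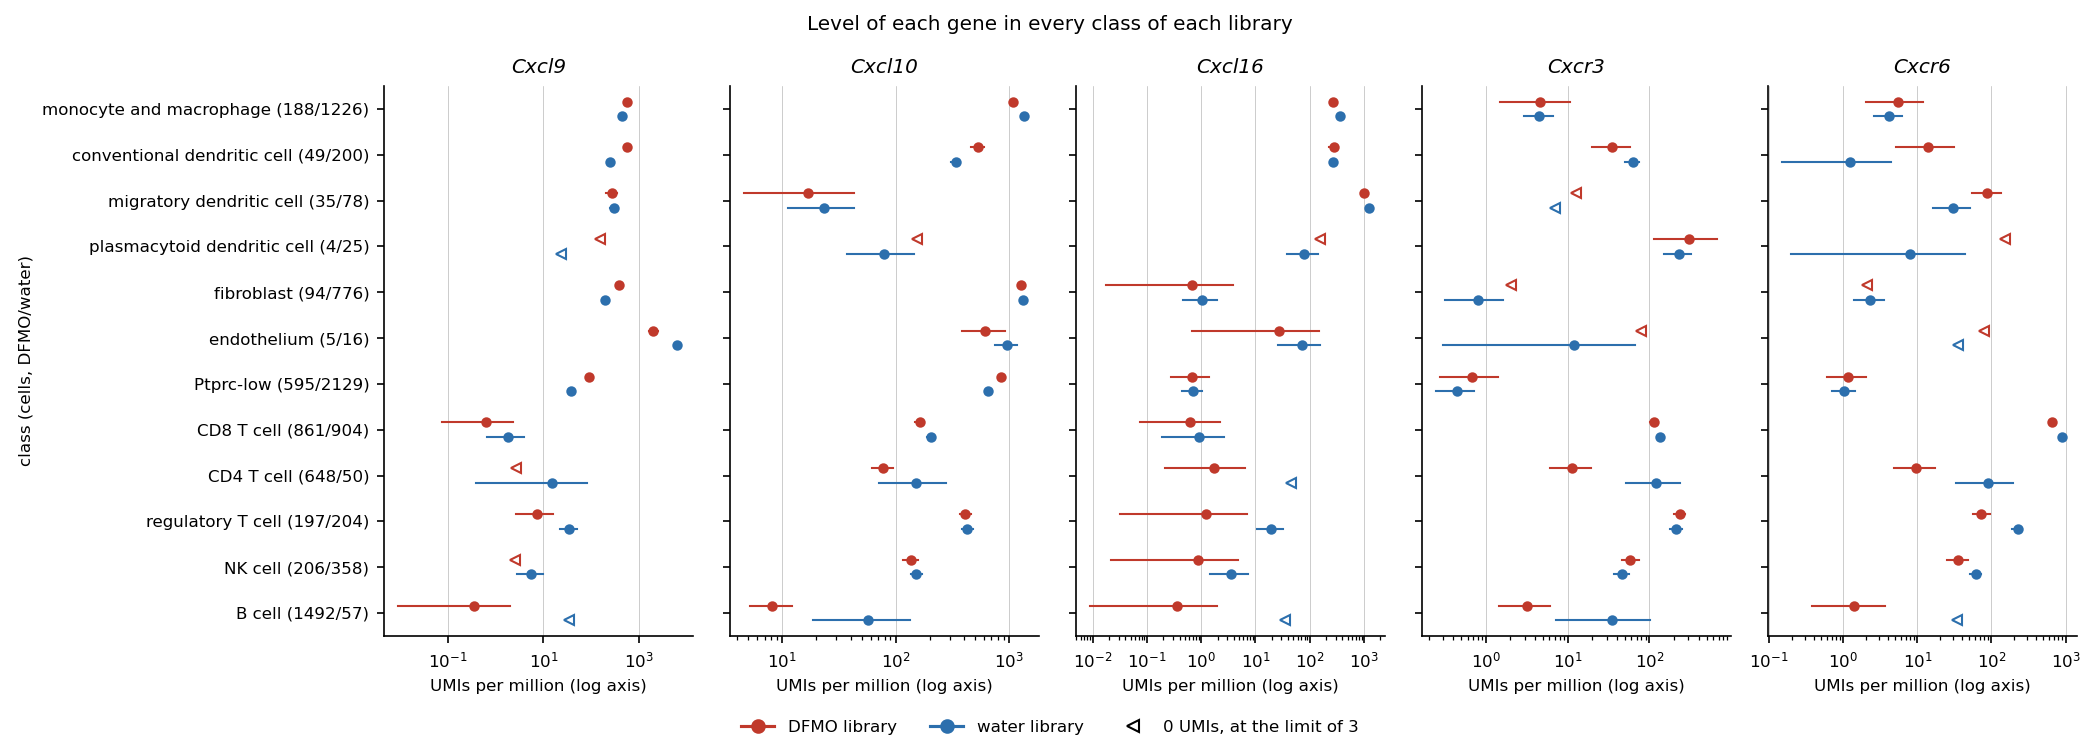
Level of each gene (horizontal log axis, CPM) in 12 classes of the DFMO and water libraries, with 95% Poisson intervals, which cover counting error only, and the numbers of cells in brackets. Open triangles are classes with 0 UMIs, placed at the limit that 0 allows (3 UMIs). Cxcl9 was high in myeloid (other than plasmacytoid) and stromal cells and lower in Ptprc-low cells (92.2 and 37.3 CPM). Cxcl10 was high in all of these classes except migratory dendritic cells (16.8 and 23.3 CPM). Cxcl16 was high in macrophages and conventional and migratory dendritic cells, and the receptors in T and NK cells.

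Cxcl9 came from macrophages, dendritic cells, fibroblasts, endothelium and Ptprc-low cells. Its UMIs lay in monocyte and macrophage-like cells for 23.9% in DFMO and 36.1% in water, in fibroblast-like cells for 22.0% and 25.2%, and in Ptprc-low cells for 37.1% and 19.0%. Ptprc-low cells held 44.0% and 58.5% of the UMIs of all genes, above their share of Cxcl9. The highest level was in the endothelium-like cluster, at 2027 CPM in 5 DFMO cells and 6282 in 16 water cells, and a single DFMO cell held 69 of the 76 UMIs there and 2 water cells 59.2% of 527. The macrophage markers C1qa and Lyz2 were at 715 and 274 CPM over the 16 water cells and at 0 in the 5 DFMO cells, and their part in the Cxcl9 level was not tested. B cells served as the class that should lack the gene: they had 1 UMI in 1492 DFMO cells and 0 in 57 water cells.

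In monocyte and macrophage-like cells Cxcl9 was at 562 CPM (519 to 609) in DFMO and 434 (417 to 451) in water, a log2 ratio of 0.37 (0.24 to 0.50). The class spans 3 clusters that differ in the gene. Cluster 3, the macrophages led by complement C1q genes, held 585 of the 612 DFMO UMIs and 2390 of the 2423 water UMIs, at 1096 and 755 CPM. Cluster 12, the monocytes, had 44.1 and 5.24 CPM, and all 16 of its DFMO UMIs were in 1 cell. Cluster 16, macrophages led by Mmp12 and Arg1, had 57.3 and 28.0 CPM.

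The gene was concentrated in few cells. A share of 0.5 of the Cxcl9 UMIs of the class lay in 7 of 188 DFMO cells and in 32 of 1226 water cells. Thinning drew 1000 UMIs from each cell that had as many and left out the other cells. After it, 12.6% of DFMO and 15.8% of water cells had a Cxcl9 UMI. The log2 ratio of the thinned level, in which cells weigh alike, was -0.10, so the direction turned. Before thinning the shares were 23.4% and 23.1%, at median depths of 5626 and 4287.5 UMIs. In this class 4.56% of 8880 genes differed by more than 2-fold, and 0 of the 4 members with at least 30 UMIs did.

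Ptprc-low cells showed a larger Cxcl9 ratio than macrophages. The level was 92.2 CPM (86.5 to 98.3) in DFMO and 37.3 (35.2 to 39.4) in water, a log2 ratio of 1.31 (1.19 to 1.43). It was higher in DFMO in each of the 4 clusters of the class. The dividing cells of cluster 1 had 137 against 42.4 CPM, cluster 4 (led by hypoxia genes such as Car9) 24.7 against 7.13, cluster 6 had 102 against 49.99, and cluster 13 had 203 against 113. Past 2-fold in Ptprc-low cells were 2.73% of 11816 genes, and of the 4 members with at least 30 UMIs Cxcl9 alone.

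Of these UMIs 0.5 lay in 9 of 595 DFMO cells and 19 of 2129 water cells. Without the highest cell of each library the log2 ratio was 1.19, and with thinned cells 0.85. In this class the 11 markers of monocytes and macrophages summed to 57.1 CPM in DFMO and 35.0 in water. Not all of them differed so, with Lyz2 at 10.5 and 10.2 CPM and Adgre1 at 0 in DFMO. The T cell marker Cd3e was at 11.3 and 3.28 CPM. Among Ptprc-low cells without a UMI of Lyz2, C1qa, Csf1r or Ptprc, Cxcl9 was at 83.1 CPM in 548 DFMO cells and 37.3 in 1971 water cells, a log2 ratio of 1.16 (1.02 to 1.29).

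In classes too small for a ratio in at least 1 library, fibroblast-like cells had 386 CPM (355 to 419) of Cxcl9 in 94 DFMO cells and 192 (183 to 202) in 776 water cells. Conventional dendritic cell-like cells had 557 CPM in 49 DFMO cells and 250 in 200 water cells, and 3 and 6 cells held 0.5 of those UMIs. Migratory dendritic cell-like cells had 269 and 303 CPM, with intervals that overlap, and 1 DFMO cell held 41 of the 64 UMIs. Without cells that had a Cd3e, Cd8a or Cd4 UMI the Cxcl9 levels were 59.0 CPM (23.7 to 122) in 24 DFMO cells and 224 (178 to 279) in 71 water cells. These intervals do not overlap, but they rest on 7 and 81 UMIs and do not cover differences between cells. The share of cells with a Cxcl9 UMI was alike, at 12.5% and 14.1%.

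Cxcl10 had more UMIs than any other member in both libraries, and Ptprc-low cells held 64.2% of them in DFMO and 49.3% in water. These cells held 44.0% and 58.5% of the UMIs of all genes, so in water their Cxcl10 share was below that. Unlike Cxcl9, Cxcl10 was above 100 CPM in both libraries in regulatory T, CD8 T and NK cells too. In Ptprc-low cells it was at 858 CPM (840 to 876) in DFMO and 648 (639 to 656) in water, a log2 ratio of 0.40 (0.37 to 0.44). As for Cxcl9, the DFMO level was above the water level in each of the 4 clusters: 1049 and 840 CPM in cluster 1, 685 and 458 in cluster 4, 944 and 633 in cluster 6, and 370 and 205 in cluster 13. After thinning, 32.7% of DFMO and 25.7% of water Ptprc-low cells had a Cxcl10 UMI, against 66.9% and 63.3% before.

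Fibroblast-like cells had 1276 CPM of Cxcl10 in DFMO and 1343 in water, and 84.0% and 80.4% of them had a UMI at median depths of 16231 and 11125.5. In monocyte and macrophage-like cells the direction was the other way from Ptprc-low cells, with 1082 CPM in DFMO and 1347 in water, a log2 ratio of -0.32 (-0.41 to -0.23). The clusters of that class were at 1864 and 2009 CPM (cluster 3), 174 and 331 (the monocytes of cluster 12) and 625 and 735 (cluster 16). DFMO was lower in each, with overlapping intervals in cluster 16 (518 to 748 and 679 to 793). The log2 ratio was -0.11 (-0.21 to -0.01) in cluster 3 and -0.93 (-1.33 to -0.55) in cluster 12. Cluster 3 held 995 of the 1178 DFMO UMIs and 6360 of the 7522 water UMIs. It was 92 of 188 DFMO cells and 755 of 1226 water cells, and the part of this makeup in the class ratio was not tested. Conventional dendritic cells had 531 and 338 CPM of Cxcl10 and migratory ones 16.8 and 23.3, from 4 and 10 UMIs. In monocyte and macrophage-like cells a single cell held 134 of the 1178 DFMO UMIs, and 9 of 188 cells held 0.5 of them.

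Among lymphocytes, regulatory T cell-like cells had 412 CPM (369 to 458) of Cxcl10 in DFMO and 429 (383 to 480) in water, a log2 ratio of -0.06 (-0.29 to 0.17), or -0.63 with thinned cells. NK cell-like cells had 136 (115 to 158) and 152 (135 to 170), a log2 ratio of -0.17 (-0.46 to 0.12). CD8 T cell-like cells had 163 (149 to 177) and 204 (188 to 220), a log2 ratio of -0.32 (-0.49 to -0.16). These levels were unequal between CD8 clusters: the cells with checkpoint genes in cluster 7 had 20.9 and 79.2 CPM and cluster 9 had 534 and 396.

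B cells had 8.10 CPM in DFMO, below each of these, and 57.6 in water with 5 UMIs in 57 cells. The share of cells with a Cxcl10 UMI was 36.5% and 35.3% in regulatory T cell-like cells and 1.47% and 5.26% in B cells. Median depths were 2940 and 2546 UMIs in the former and 1765.5 and 1314 in the latter. At 1000 UMIs per cell the shares were 18.9% and 23.7% against 0.687% and 2.08%. How much of the lymphocyte signal is RNA from other cells was not tested.

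**Figure D2:**
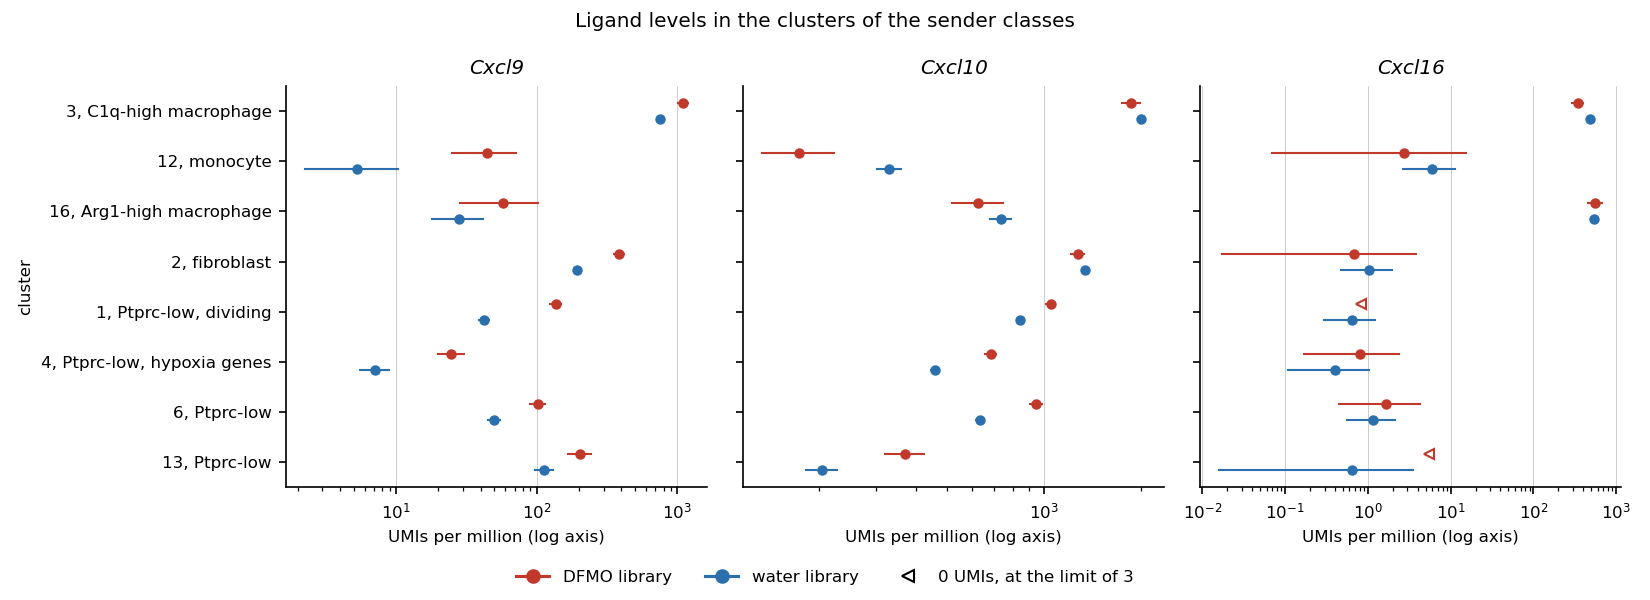
Levels of the 3 ligands (log axis, CPM, 95% Poisson intervals) in the clusters of the monocyte and macrophage, fibroblast and Ptprc-low classes. Open triangles mark 0 UMIs at the limit of 3. Cxcl9 and Cxcl10 were above the water level in DFMO in all 4 Ptprc-low clusters, and Cxcl16 was at most 1.65 CPM there and at 2.76 and 5.90 in the monocytes of cluster 12.

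Cxcl16 was the ligand of mature myeloid cells. Monocyte and macrophage-like cells held 42.5% of its UMIs in DFMO and 65.6% in water, migratory dendritic cell-like cells 34.6% and 16.8%, and conventional dendritic cell-like cells 17.1% and 13.9%. The 35 DFMO and 78 water migratory dendritic cells, in a cluster led by Il12b and Ccl22, had the highest level, at 996 CPM (874 to 1132) and 1221 (1118 to 1330). A UMI was seen in 94.3% and 91.0% of them, and in 71.0% and 68.5% after thinning.

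That DFMO cluster also carried T cell RNA, with Cd3e at 349 CPM against 62.9 in water and Cd8a at 383 against 53.6. Without cells that had a Cd3e, Cd8a or Cd4 UMI, Cxcl16 was at 1096 CPM in 24 DFMO cells and 1247 in 71 water cells. In contrast to Cxcl9 and Cxcl10, Cxcl16 was at 0.680 and 0.703 CPM in Ptprc-low cells and at 0.686 and 1.02 in fibroblast-like cells.

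In monocyte and macrophage-like cells Cxcl16 was at 267 CPM (237 to 300) in DFMO and 366 (350 to 382) in water, a log2 ratio of -0.45 (-0.64 to -0.28). The C1q macrophages of cluster 3 had 343 (295 to 396) and 490 (466 to 515). The Arg1 macrophages of cluster 16 had 558 (457 to 674) and 543 (496 to 594), with overlapping intervals. Monocytes in cluster 12 had 1 UMI in 63 DFMO cells and 9 in 309 water cells, so that within this class Cxcl16 marked macrophages and not monocytes. Conventional dendritic cells had 275 (228 to 330) and 268 (243 to 294) CPM. Cxcl16 was spread over more cells than the other ligands, since 0.5 of the UMIs of the class lay in 17 of 188 DFMO and 122 of 1226 water cells.

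**Figure D3:**
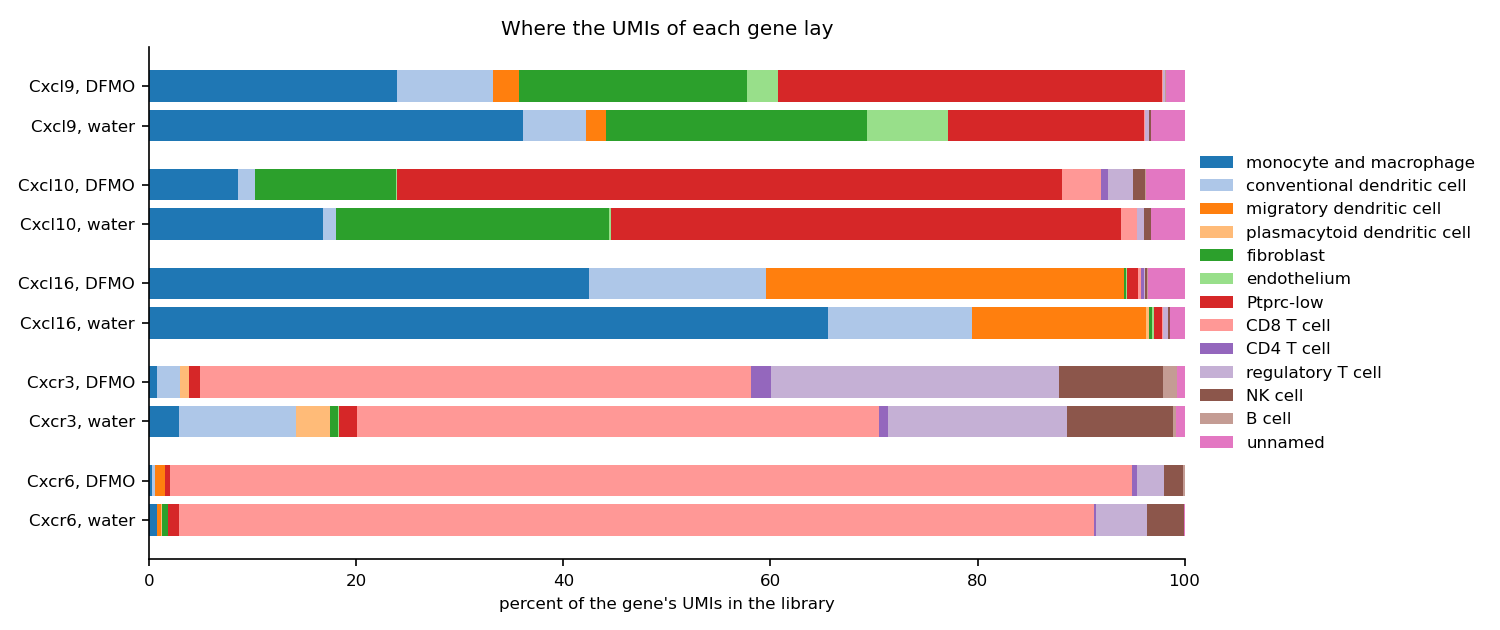
Share of each gene's UMIs (horizontal axis, percent of the gene's UMIs in the library) by class, for the DFMO and water libraries. Ptprc-low cells held 64.2% and 49.3% of Cxcl10, beside 44.0% and 58.5% of the UMIs of all genes. Monocyte and macrophage-like cells held 42.5% and 65.6% of Cxcl16, and CD8 T cell-like cells 92.9% and 88.4% of Cxcr6.

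Cxcr3 lay mostly in T and NK cells, whose clusters held 93.1% of its UMIs in DFMO and 78.8% in water. CD8 T cell-like clusters held 53.2% and 50.5%, regulatory T cell-like cells 27.9% and 17.2%, and NK cell-like cells 10.0% and 10.2%. Outside lymphocytes the gene was seen in conventional dendritic cells, at 35.3 CPM (19.7 to 58.2) and 62.3 (50.7 to 75.6), and in plasmacytoid dendritic cells, at 307 CPM in 4 DFMO cells and 227 in 25 water cells. B cells gave a background of 9 UMIs in 1492 DFMO cells, 3.17 CPM.

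Among the lymphocyte clusters, Cxcr3 was highest in cluster 9, T cells led by Klra6, Gzmk and Cd160, at 274 CPM (227 to 328) in DFMO and 363 (323 to 406) in water. Regulatory T cell-like cells followed, at 234 (202 to 269) and 212 (180 to 248), a log2 ratio of 0.14 (-0.17 to 0.46). The remaining CD8 clusters were lower. Cluster 10, led by Dapl1 and Lef1, a gene of naive T cells, had 105 (85.8 to 127) and 86.8 (31.8 to 189). The dividing cells of cluster 15 had 97.9 (76.2 to 124) and 62.5 (47.8 to 80.3), and the checkpoint-high cells of cluster 7 had 64.5 (50.1 to 81.7) and 52.8 (41.5 to 66.3). NK cells had 58.7 (45.6 to 74.4) and 46.5 (37.4 to 57.1), and CD4 T cells had 11.3 in 648 DFMO cells and 120 in 50 water cells. Clusters 10, 15, 7 and the NK cells are neighbours in this order, and in water the intervals of all 4 overlap.

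For the CD8 T cell-like class as a whole, Cxcr3 was at 113 CPM (101 to 125) in DFMO and 136 (124 to 149) in water, a log2 ratio of -0.27 (-0.48 to -0.07). This direction rested on cluster 9. Only 42.6% of its DFMO and 58.3% of its water cells had a Cd8a or Cd8b1 UMI, while in cluster 7 all cells did, so its place in the class is uncertain. Without cluster 9 the level was 87.7 CPM in DFMO and 57.6 in water, a log2 ratio of 0.60 (0.30 to 0.91). Over the cells of the class with a Cd8a or Cd8b1 UMI it was 103 and 109 CPM, a log2 ratio of -0.07 (-0.30 to 0.16). Of 9415 genes in the class 5.19% were past 2-fold, and 0 of its 3 members with at least 30 UMIs were.

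Within cluster 9 Cxcr3 was at 354 CPM in DFMO and 367 in water in cells with a Cd8a or Cd8b1 UMI, and at 208 and 357 in cells without. The DFMO cells without such a UMI were the low group.

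Cxcr6 was almost entirely a T cell gene. T and NK cell clusters held 97.8% of its UMIs in DFMO and 97.1% in water, and the CD8 T cell-like class 92.9% and 88.4%, or 82.4% and 71.8% without cluster 9. The level was graded across the CD8 clusters. The cells of cluster 7, led by Gzmf, Pdcd1 and Lag3, had 1322 CPM (1254 to 1394) in DFMO and 1247 (1189 to 1307) in water, a log2 ratio of 0.08 (-0.02 to 0.19). Cluster 9 had 548 (480 to 622) and 648 (595 to 704), the dividing cells of cluster 15 had 457 (408 to 510) and 627 (578 to 679), and the Lef1 cells of cluster 10 had 133 (112 to 158) and 130 (59.5 to 247). Clusters 9 and 15 do not differ beyond their intervals in either library.

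A Cxcr6 UMI was seen in 94.9% and 90.2% of the cells of cluster 7, and in 72.3% and 67.9% after thinning. In the B cells of the DFMO library it was seen in 0.201%. Even cluster 10 lay above that, with 22.2% of its 437 DFMO cells at a median of 2212 UMIs against 1765.5 in B cells.

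In the class as a whole Cxcr6 was at 652 CPM (624 to 681) in DFMO and 886 (854 to 919) in water, a log2 ratio of -0.44 (-0.52 to -0.36). The makeup of the class moved with it: cluster 10 was 437 of 861 DFMO cells and 39 of 904 water cells. Without cluster 10 the levels were 892 and 902 CPM, a log2 ratio of -0.02 (-0.10 to 0.07). Without both clusters 9 and 10 they were 976 and 993 CPM, a log2 ratio of -0.02 (-0.12 to 0.07). Cxcr6 took no part in the clustering. Among the other CD8 clusters the log2 ratio was -0.46 (-0.66 to -0.26) in cluster 15 and -0.24 (-0.47 to -0.02) in cluster 9.

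**Figure D4:**
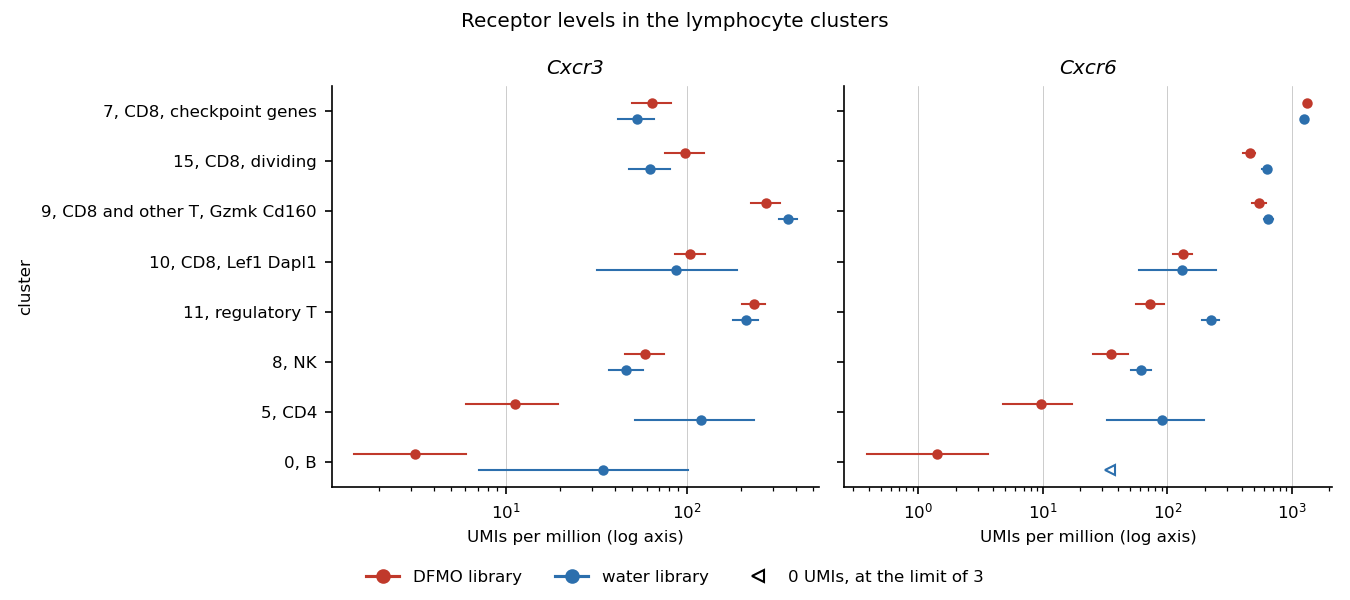
Cxcr3 and Cxcr6 levels (log axis, CPM, 95% Poisson intervals) in the lymphocyte clusters of the DFMO and water libraries. The open triangle marks 0 UMIs at the limit of 3. Cxcr3 was highest in cluster 9 (274 and 363 CPM) and Cxcr6 in cluster 7 (1322 and 1247 CPM).

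In regulatory T cells the Cxcr3 interval held 0, as given above, and its log2 ratio was -0.30 after thinning. Cxcr6 was lower in DFMO. Cxcr6 was at 72.9 CPM (55.5 to 94.1) in 197 DFMO cells and 224 (191 to 262) in 204 water cells, a log2 ratio of -1.62 (-2.08 to -1.18). The same share of 0.5 of these UMIs lay in 4 DFMO cells and 8 water cells. A Foxp3 UMI was seen in 55.8% of DFMO and 60.3% of water cells of the class. A Cd8a or Cd8b1 UMI was seen in 14.7% and 13.2%. In the 95 DFMO and 100 water cells with Foxp3 and without Cd8a or Cd8b1, Cxcr6 was lower, at 32.9 and 124 CPM. Its log2 ratio there was -1.92 (-2.97 to -0.98), from 12 and 47 UMIs. In this class 8.09% of 6147 genes were past 2-fold, as were 2 of its 4 members with at least 30 UMIs, Cxcr6 and Cxcl9 (6 and 25 UMIs).

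Other genes moved with Cxcr6 in that cluster, and their part in the result was not tested. Tcf7, a transcription factor of naive and memory T cells, was at 162 CPM in DFMO and 13.8 in water, and Ccr7, the lymph node homing receptor, at 237 and 31.9. Among cells without a Tcf7 or Ccr7 UMI, Cxcr6 was at 141 CPM in 99 DFMO cells and 242 in 188 water cells, a log2 ratio of -0.78 (-1.27 to -0.32). Cxcr3 in the same cells was at 317 and 218 CPM, a log2 ratio of 0.54 (0.18 to 0.91), an interval above 0. The 11 monocyte and macrophage markers summed to 246 CPM in DFMO and 717 in water, with Lyz2 at 4.95 and 222, and 4 of the 11 at 0 in DFMO. Without cells that had a Lyz2, C1qa or Cd209a UMI the Cxcr6 log2 ratio was -1.78 (-2.27 to -1.30). That of Cxcl9 moved from -2.22 (-3.80 to -0.90) to -1.07 (-2.81 to 0.54), with 6 UMIs in DFMO and 10 in water, the latter all in 1 cell. For Cxcr6 the log2 ratio was -0.77 with cells of at least 500 genes, and with clusters cut at Leiden resolution 2.0 it was -0.46, so its size depends on where the class ends.

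NK cell-like cells had 35.4 CPM (25.4 to 48.0) of Cxcr6 in DFMO and 61.3 (50.8 to 73.3) in water, a log2 ratio of -0.79 (-1.34 to -0.27), from 12 of 206 and 29 of 358 cells. Their Cxcr3 log2 ratio was 0.34 (-0.14 to 0.81), and -0.60 with cells thinned to 1000 UMIs, so its direction turned. Past 2-fold among NK cells were 2.57% of 7695 genes and 0 of the 3 members with at least 30 UMIs.

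**Figure D5:**
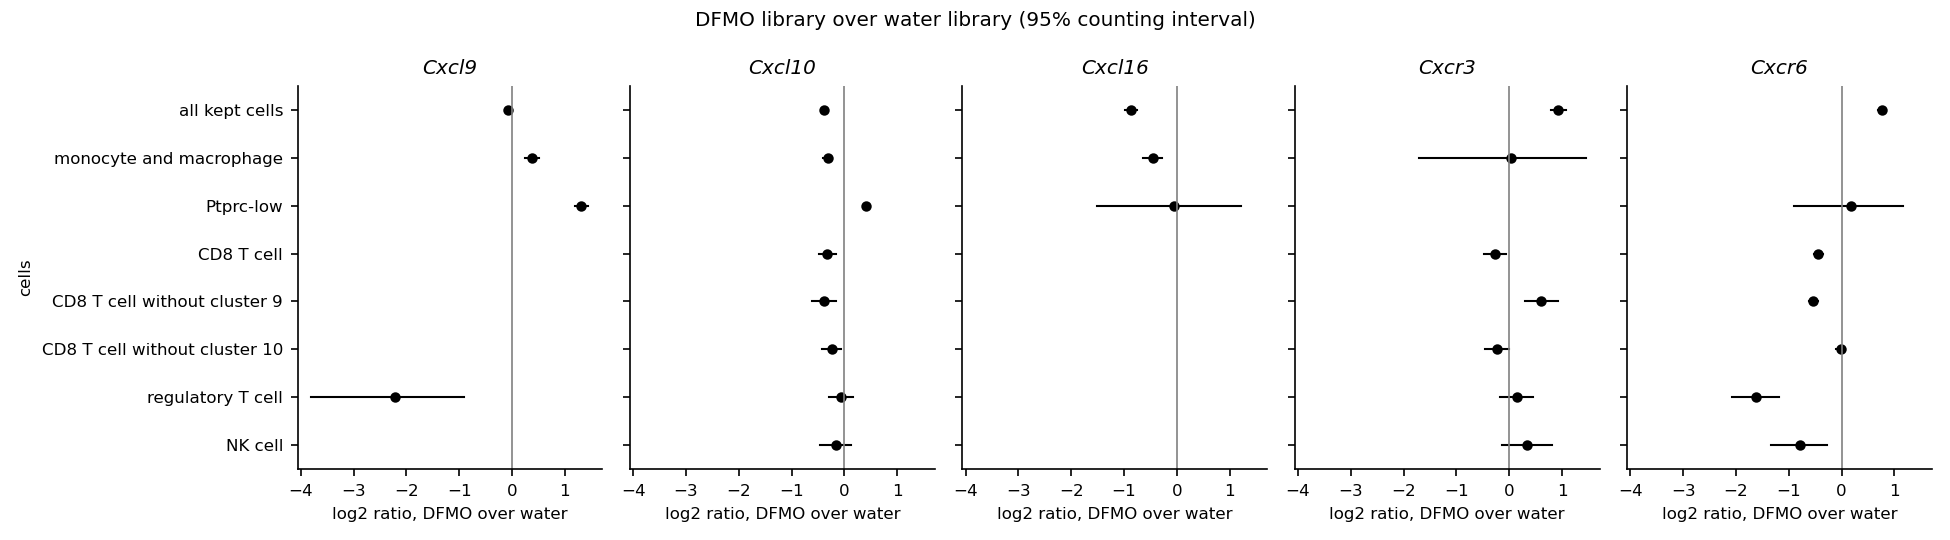
Log2 ratio of the DFMO over the water library (horizontal axis, 95% counting interval) for each gene in all kept cells, in the 5 classes with at least 100 cells in each library, and in the CD8 class without cluster 9 or without cluster 10. A point is shown where both libraries had a UMI and their sum was at least 30. Cxcr3 in the CD8 class changed sign without cluster 9, from -0.27 to 0.60, and Cxcr6 moved from -0.44 to -0.02 without cluster 10.

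In single cells thinned to 1000 UMIs, Cxcl10 was detected more often in cells with a Cxcl9 UMI. Of water monocyte and macrophage-like cells with a Cxcl9 UMI, 45.8% (38.6% to 53.2%, exact binomial) also had Cxcl10, against 29.0% of those without Cxcl9. In Ptprc-low cells the figures were 53.2% (40.1% to 66.0%) and 24.8% in water, and 48.6% (31.4% to 66.0%) and 31.7% in DFMO. The DFMO interval holds the 31.7% of the cells without Cxcl9. Fibroblast-like cells in water had 65.6% (55.2% to 75.0%) and 43.2%. The monocyte and macrophage-like and Ptprc-low classes pool clusters that differ in both genes. In water, cluster 3 had 755 CPM of Cxcl9 and 2009 of Cxcl10, and cluster 12 had 5.24 and 331. Shares within single clusters are not given here, and the part of the cluster mix was not tested. Cells of 1 class share a library, so these shares are descriptions.

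Cxcl16 and Cxcl10 showed less of this, at 35.4% and 30.4% in water monocyte and macrophage-like cells. The receptors showed no such excess in CD8 T cell-like cells: of those with a Cxcr3 UMI 45.4% (37.0% to 54.0%) had Cxcr6 in water, against 52.6% of those without. In DFMO the shares were 25.3% (16.6% to 35.7%) and 32.8%. The CD8 class also pools clusters that differ in both receptors. In water, cluster 7 had 52.8 CPM of Cxcr3 and 1247 of Cxcr6, and cluster 9 had 363 and 648. The part of this mix in the shares was not tested.

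The interferon gamma route was compared next, as a list of 9 genes that begins with the cytokine, its receptor and the kinases bound to it. Ifng itself was at 496 CPM in CD8 T cell-like cells of DFMO and 716 in water, at 387 and 284 in NK cells and at 63.1 and 116 in regulatory T cells. In Ptprc-low cells all 9 of 9 genes of the route with at least 30 UMIs were higher in DFMO. Past 2-fold was 1 of them (Ifng, with 17 and 26 UMIs), against 2.73% of the 11816 genes of the class. The T cell marker Cd3e was at 11.3 and 3.28 CPM in these cells, and the part of T cell RNA in the list was not tested. Irf8 there had only 26 and 49 UMIs, and the Jak1 interval held 0 (-0.07 to 0.17). The list's median log2 ratio was 0.26 against 0.05 over all genes. The same list had 5 of 8 higher in monocyte and macrophage-like cells, with a median of 0.05 against 0.04. Socs1, the feedback inhibitor of this signal, was at 184 and 294 CPM there (-0.68) and at 240 and 389 in CD8 T cell-like cells (-0.70).

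Among genes that process or clear the ligands, Adam10 and Adam17, the sheddases of CXCL16, were at 56.0 and 47.1 CPM and at 71.7 and 64.6 in monocyte and macrophage-like cells, with log2 ratios of 0.25 and 0.15. Dpp4, the peptidase that trims CXCL9 and CXCL10, was at 55.3 and 35.8 CPM in CD8 T cell-like cells (0.62). Over all kept cells it was at 19.6 and 5.64 (1.80). Ackr3, a scavenging receptor, was at 44.0 and 43.6 CPM in Ptprc-low cells. Cd74, the invariant chain and receptor of the cytokine MIF, was at 166 and 76.6 CPM there (1.11). It was the 1 of 6 measured genes of this list past 2-fold, against 2.73% of the 11816 genes of that class. Among genes of signalling below the receptors, 0 of 9 measured in CD8 T cell-like cells passed 2-fold, against 5.19% of the 9415 genes there. There Gnai2, the G protein subunit that carries chemokine signals, was at 1055 and 1041 CPM, Gnai3 at 96.8 and 67.4 (0.52) and Rgs1, which ends such signals, at 610 and 973 (-0.67).

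The programme list, genes known to accompany or oppose these receptors, split in CD8 T cell-like cells. The naive and recirculation genes Tcf7 (206 and 41.9 CPM), Ccr7 (236 and 45.9), S1pr1 (109 and 22.2) and Klf2 (867 and 269) were higher in DFMO. So was Itgae, an integrin of resident cells (38.4 and 8.81). Of the 14 genes 6 were past 2-fold, all higher in DFMO, against 3.62% of the 9415 genes of the class past 2-fold in that direction. The effector factor Tbx21 was at 93.4 and 144 CPM (-0.62), Bhlhe40 at 243 and 327 (-0.43) and Il2rb, the interleukin 2 receptor chain, at 685 and 791 (-0.21). Eomes, another effector factor, went the other way, at 42.2 and 23.7 CPM (0.83). The median of the list was 0.43 against 0.06 over all genes, and cluster 10 is the part of the class in which naive genes lead.

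In monocyte and macrophage-like cells 11 of 11 other chemokines measured were lower in DFMO, and their median log2 ratio was -0.49 against 0.04 over all genes. Past 2-fold were 2 of the 11, against 4.56% of 8880 genes in the class, and the Cxcl14 interval held 0 (-0.68 to 0.36). Those with the lowest ratios among genes of at least 100 UMIs were Xcl1 (9.19 and 32.9 CPM, -1.84), Ccl7 (397 and 665, -0.74) and Ccl12 (439 and 675, -0.62). Xcl1 had 10 and 184 UMIs here and was at 3906 and 4978 CPM in NK cell-like cells. Cluster 3 was 92 of 188 DFMO cells and 755 of 1226 water cells of the class. The part of this makeup and of NK cell RNA was not tested. In Ptprc-low cells 3 of 11 were higher and 8 lower. Ccl8 was at 11.3 and 2.43 CPM (2.21), and the neutrophil attractants Cxcl1 and Cxcl2 were at 86.7 and 126 (-0.53) and at 0.972 and 3.25 (-1.74). In regulatory T cells 4 of 4 measured were lower, with Ccl3 the lowest of those with at least 100 UMIs (55.6 and 174 CPM, -1.65). Of other receptors there, Ccr8, a receptor of tumour regulatory T cells, was at 131 and 309 CPM (-1.24). Past 2-fold were 2 of 4 measured receptors, both lower, against 8.09% of the 6147 genes of the class in either direction.

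Likeness of pattern was taken as Pearson's r of log2(CPM + 1) over 22 sums of a cluster class and library with at least 30 cells, among 12516 genes. Points of 1 library share its depth, and points of 1 class share its cells. Cxcl9 was most like Tmem106a (r = 0.94), Batf2 (0.94), Il13ra1 (0.94), Slamf8 (0.93) and Rab32 (0.92). For Cxcl10 these were Dbi (0.93), Pkm (0.91), Ndufc2 (0.89), 1110008F13Rik (0.89) and Rxra (0.88). For Cxcl16 they were Csf2rb2 (0.99), Bcl2a1a (0.98), Csf2rb (0.98), Aph1c (0.98) and Mcemp1 (0.97).

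Among the receptors, Cxcr3 was most like Rab19 (0.87), Ptpn7 (0.86), Tma7 (0.86), Spcs2 (0.86) and Anxa6 (0.84), and Cxcr6 like the checkpoint gene Pdcd1 (0.94), Ifng (0.92), Tnfrsf9 (0.92), Lag3 (0.92) and Cd8b1 (0.91). Between members, r was 0.71 for Cxcl9 and Cxcl16, 0.50 for Cxcl9 and Cxcl10, 0.59 for Cxcr3 and Cxcr6 and -0.01 for Cxcl10 and Cxcl16. Ranked by Spearman's rho instead, 2 of the leading 5 remained for Cxcl9 and Cxcr3, 1 for Cxcl10 and Cxcr6 and 0 for Cxcl16.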

How the data were processed

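The values used are whole UMI counts, which the authors deposited without normalization as a matrix over 17775 genes and 10720 cells, with a table of each cell's group. Cell Ranger 3.02, Scanpy 1.4.4 and the build mm10 are named in the submitters' processing notes. Cells marked Control in that table were taken as the water group. No mitochondrial or ribosomal protein gene is in the matrix, and no source used here gives the filters applied earlier.

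Cells with at least 200 genes were kept, and Scrublet in scanpy 1.11.5 (assumed rate 0.05) removed 51 DFMO and 97 water cells as doublets. Clustering used 2000 variable genes without receptor segments, members and partner genes, 30 components, 15 neighbours and Leiden at resolution 1 (leidenalg 0.10.2). A class needed at least 3 markers, each 2-fold above the rest and in at least 0.1 of cells. That rule was set after the clusters were seen. UMIs were summed per library and class, and ratios carry exact conditional binomial intervals. Alternatives included TMM (edgeR 4.0.16) and cells thinned to 1000 UMIs. Thinning left out cells with fewer UMIs, and the thinned level weighed the remaining cells alike. The interval code was tested on simulated data.

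Genes named are the members, Ifng, Adam10, Adam17, Dpp4, those with the 3 highest or 3 lowest ratios of a list in a class among genes of at least 100 UMIs there, the 5 most alike genes, cell markers, and overlapping genes. Some list genes between these were named after their values were seen. The members and lists were chosen with earlier results of these data known. Some genes that this rule names are not reported here.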

Additional observations from a re-analysis of the deposited data

How the results depend on the processing

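No paired analysis was possible because there was a single library for DFMO and a single one for water. Of the values recomputed for the main comparisons, 81 stayed within their counting interval, 49 moved beyond it and 13 reversed.

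Over all cells, in the order Cxcl9, Cxcl10, Cxcl16, Cxcr3 and Cxcr6, the log2 ratios were -1.57, -1.52, -2.11, -0.17 and -0.37 with each cell weighted alike. With cells of at least 1000 UMIs thinned to 1000 they were -1.72, -1.45, -2.20, -0.22 and -0.23, so both receptors reversed in each setting. In the water mix of classes they were 0.71, 0.15, -0.35, -0.13 and -0.46. Cxcl10 was at -0.44 with TMM library sizes.

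In monocyte and macrophage-like cells, weighting cells alike gave 0.17 for Cxcl9 and -0.47 for Cxcl10. Thinning gave -0.10 for Cxcl9 (reversed), -0.54 for Cxcl10 and -0.96 for Cxcl16. Without the highest cell of each library Cxcl10 was at -0.44.

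In CD8 T cell-like cells Cxcr3 reversed to 0.59 with doublets kept, 0.55 with at least 500 genes per cell, 0.63 with members and partners allowed in clustering and 0.60 without cluster 9 (added after the data were seen). Cxcr6 was then at -0.53, -0.56, -0.60 and -0.53, and at -0.60 at Leiden resolution 2.0. Weighting cells alike gave -0.80 for Cxcr3 and -0.76 for Cxcr6, thinning -0.69 and -0.66. Without cluster 10, also added later, Cxcr6 was at -0.017. Limited to cells with a Cd8a or Cd8b1 UMI, Cxcr3 was at -0.07 (-0.30 to 0.16), an interval that holds 0.

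The share of Cxcr3 UMIs in the CD8 class (DFMO and water) became 35.4% and 15.98% with doublets kept, 36.9% and 16.8% with 500 genes, 38.5% and 16.1% with members allowed, 35.8% and 15.9% without cluster 9, and 47.6% and 36.4% at resolution 2.0. That of Cxcr6 became 82.0% and 69.7%, 82.6% and 72.2%, 82.3% and 71.9%, 82.4% and 71.8%, and 86.9% and 83.5% in the same order. The share of Cxcl10 in Ptprc-low cells became 65.8% and 47.3% with doublets kept and 67.3% and 51.4% at resolution 0.5. It was 62.6% in DFMO with members allowed and 48.1% in water at resolution 2.0.

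With at least 100 UMIs asked for, fewer genes were measured, and those past 2-fold numbered 96 in place of 323 in Ptprc-low cells, 77 in place of 405 in monocytes and macrophages, 171 in place of 489 in CD8, 126 in place of 497 in regulatory T and 36 in place of 198 in NK cells. The other causes were not tested. Classes under 100 cells in a library have levels only, by the rule set.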
